A study of Mus musculus with 5 samples.

Results

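A set of 10 genes of nucleoside salvage and breakdown were followed in mouse kidney, namely Upp1, Upp2, Uck1, Uck2, Cda, Dpyd, Dpys, Upb1, Xdh and Ada. They were taken from the deposited expression table by symbol, and all 10 were found among its 23997 rows. The set was chosen by function and selected on results of these libraries, above all the low level of Upp2 in the mutants. The contrast of the groups therefore describes the members and does not test them, and no p-value is given for a member. Whole kidneys of 8-week-old mice had given 5 RNA-seq libraries. Of these, 3 carried the genotype label of an uninduced control (control 0, 1 and 2) and 2 that of a Pkd1 knockout (knockout 0 and 1). Pkd1 encodes polycystin-1, whose loss causes cystic kidneys, and the series was about metalloproteinases in tubule remodelling and cyst growth. The titles call the mutants SKO, the series' design PkdTKO, and the labels name neither the Cre driver nor the inducer nor the strain. Nothing in them ties the libraries to separate animals, so it is not known whether the spread between control libraries is technical. Some transcripts, such as Slco1a1, differed widely between the controls and others, such as Upp2, little (values below). The 2 knockout libraries differed in transcripts of the sex chromosomes (values below), so their spread cannot be read as technical alone.

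Uridine, cytidine and adenosine leave the nucleotide pool as nucleosides, which a cell can either phosphorylate again (salvage) or degrade. In the pyrimidine branch, cytidine deaminase turns cytidine into uridine, uridine-cytidine kinases return both to nucleotides, and uridine phosphorylases split uridine into uracil and a ribose phosphate. Uracil is then reduced, its ring is opened and beta-alanine is released, by the products of Dpyd, Dpys and Upb1 in that order. In the purine branch adenosine deaminase makes inosine, and, further along, xanthine dehydrogenase makes urate. The kidney filters nucleosides and urate, and its proximal tubule takes both up again.

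The members differed in kind of response. Upp2, a uridine phosphorylase, was at about 10 FPKM (a level in fragments, corrected for transcript length and for library size) in each control and at about 1 in each knockout library. Xdh was at 2.81 times its control mean, and Upb1 was at 62.5% of its control mean. Uck1 and Cda were also below every control in both knockout libraries. Upp1 and Uck2 each had 1 knockout library within the control range and the other above it, and for Dpyd, Dpys and Ada the knockout libraries lay on opposite sides of the controls.

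Upp2 (ENSMUSG00000026839.17) lies on mm10 chromosome 2 from 58567298 to 58792971, plus strand, a span of 225.7 kb with 10 transcripts in GENCODE M21. RefSeq places its transcription starts in 2 places 187.8 kb apart. The deposited value is for the whole gene and does not separate them, so both start windows are shown, each from 250 bases before to 50 after the start (RefSeq, GRCm38.p6). With them stands the window of Upb1 (chromosome 10), the other member that passed the threshold in the lower direction. Capitals mark matches on either strand to short motifs. A half-site of the tubule factor HNF1 was written as GTTAAT. For HNF4, which also acts in tubules, CAAAGTCCA was used. Steroid receptor half-sites were searched with AGAACA. The TATA box was searched with TATAAA.
Upp2 upstream start, chr2:58567084-58567383, plus strand: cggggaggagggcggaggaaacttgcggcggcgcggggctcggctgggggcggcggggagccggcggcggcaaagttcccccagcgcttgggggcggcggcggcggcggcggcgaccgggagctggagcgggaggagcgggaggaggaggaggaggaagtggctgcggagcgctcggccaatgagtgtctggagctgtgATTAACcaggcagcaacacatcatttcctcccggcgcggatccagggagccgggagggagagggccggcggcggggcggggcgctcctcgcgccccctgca
Upp2 downstream start, chr2:58754934-58755233, plus strand: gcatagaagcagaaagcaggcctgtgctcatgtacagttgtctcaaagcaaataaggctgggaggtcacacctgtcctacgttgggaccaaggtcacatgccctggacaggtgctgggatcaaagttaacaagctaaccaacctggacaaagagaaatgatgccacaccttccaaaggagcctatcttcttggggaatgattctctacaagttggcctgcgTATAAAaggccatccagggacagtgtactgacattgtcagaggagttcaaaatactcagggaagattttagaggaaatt
Upb1 start, chr10:75406661-75406960, plus strand: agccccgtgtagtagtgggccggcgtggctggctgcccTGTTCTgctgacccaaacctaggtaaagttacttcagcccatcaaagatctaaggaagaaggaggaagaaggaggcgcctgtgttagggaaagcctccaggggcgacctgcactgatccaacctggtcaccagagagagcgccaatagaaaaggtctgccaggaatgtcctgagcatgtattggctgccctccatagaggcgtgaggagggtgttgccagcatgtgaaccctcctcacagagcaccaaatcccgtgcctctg
The 2 Upp2 windows were unlike each other. The upstream one had 75.3% G and C with 37 CG pairs and 1 match to GTTAAT, and the downstream one had 47.0% with 2 CG pairs and 1 match to TATAAA, 29 bases before the start. The Upb1 window had 56.7% and 1 match to AGAACA. Over 32851 windows of 300 bases in the same RefSeq table, GTTAAT was found in 7.1%, CAAAGTCCA in 0.475%, AGAACA in 19.0% and TATAAA in 13.6%. For CAAAGTCCA no match was found in these 3 windows. Of the 10 members 8 had an entry in this table, and Dpys and Xdh did not.

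Before the differences, the level of each member per kilobase is given, since FPKM allows genes to be set side by side. Among the controls Cda had by far the highest mean (257.9 FPKM), followed by Upb1 (55.6), Uck1 (48.5), Dpyd (23.1), Dpys (11.1), Upp2 (10.04), Uck2 (6.69), Upp1 (5.23), Xdh (2.96) and Ada (1.07). The only neighbours in that order whose control libraries overlapped were Dpys and Upp2. Cda stayed first in every library, while Uck1 and Upb1 changed places in both knockout libraries. Upp2 moved from rank 5 or 6 of 10 in the controls to rank 10 in both knockout libraries, and Xdh from 9 to 5 in knockout 0 and to 7 in knockout 1. All 10 members passed the filter of a mean of at least 1 FPKM over the 5 libraries.

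**Figure D1:**
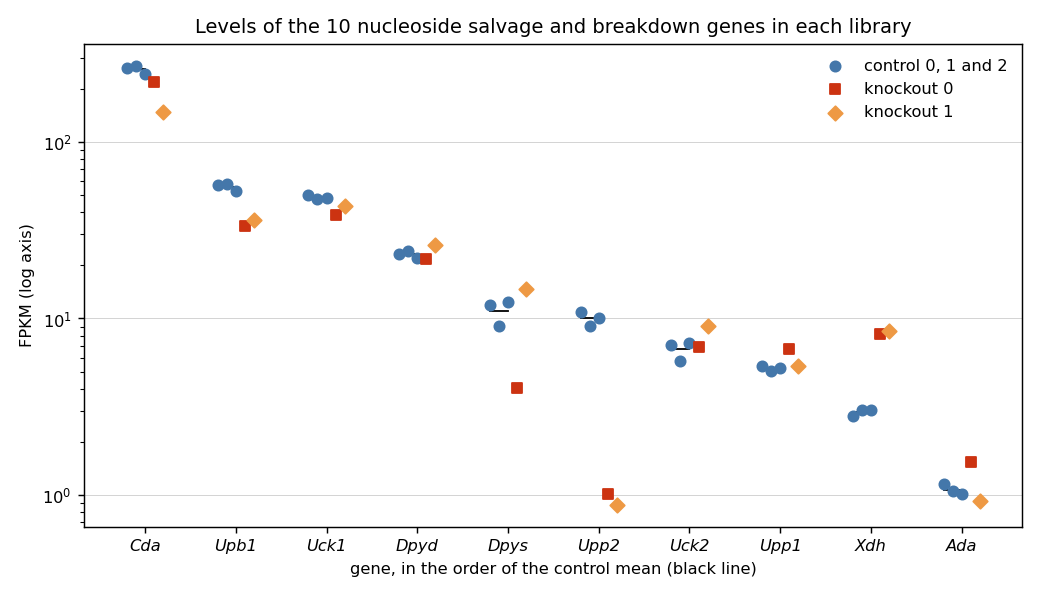
FPKM (log axis) of the 10 genes in each of the 5 libraries, in the order of the control mean, which a black line marks. Circles are the 3 controls, the square knockout 0 and the diamond knockout 1. Upp2 falls to the bottom of the range in both knockout libraries (1.02 and 0.881) and Xdh stands above every control (8.12 and 8.50).

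The uridine phosphorylases came first in the breakdown of pyrimidines and diverged. Upp2 stood at 10.9, 9.12 and 10.1 FPKM across control 0, 1 and 2, against 1.02 for knockout 0 and 0.881 for knockout 1. The groups were far apart, both knockout libraries stood within a narrow range of each other, and the knockout mean was 9.46% of the control mean. The log2 fold change of Upp2, fitted by limma on log2(FPKM + 1), a scale that understates changes of low values, was -2.50 (SE 0.0973, 95% interval -2.74 to -2.25). Of the 12553 tested rows without a listed 0, 13 had a lower log2 fold change.

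Upp1, the more widely expressed uridine phosphorylase, stood at 5.40, 5.03 and 5.27 FPKM across the controls, against 6.70 for knockout 0 and 5.38 for knockout 1. Only knockout 0 was above the controls, and knockout 1 lay within their range. The log2 fold change of Upp1 was 0.17 (SE 0.102, 95% interval -0.08 to 0.43). Upp2 thus supplied 66.9%, 64.5% and 65.7% of the summed uridine phosphorylase FPKM of control 0, 1 and 2, but 13.2% and 14.1% of that of knockout 0 and 1. The sum itself was 15.3 ± 1.07 (SD, n = 3) across the controls, against 7.72 for knockout 0 and 6.26 for knockout 1. In whole tissue, fewer cells of a type and less RNA per cell cannot be told apart, here or for any gene below.

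**Figure D2:**
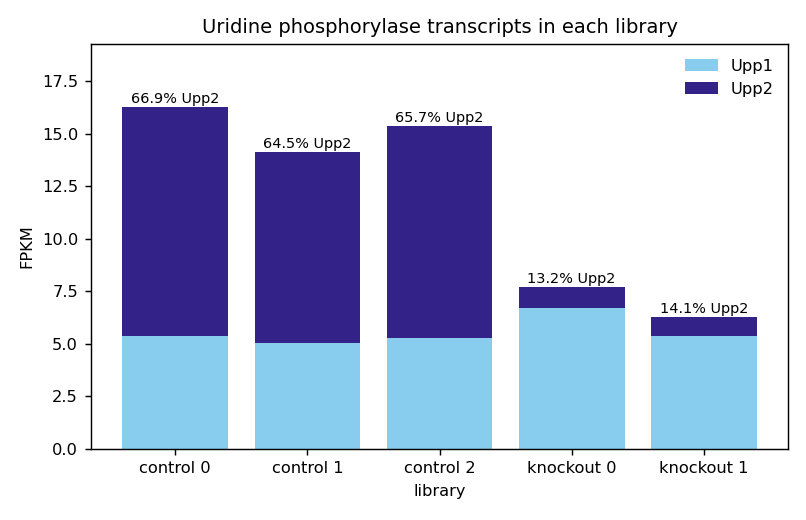
Stacked bars give the FPKM of Upp1 and Upp2 in each of the 5 libraries, with the share of Upp2 in the sum above each bar. The Upp1 part stays between 5.03 and 6.70, and the share of Upp2 is 64.5% to 66.9% in the controls against 13.2% and 14.1% for the knockout libraries.

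The salvage kinases differed little. Uck1, which phosphorylates uridine and cytidine, stood at 49.9, 47.6 and 48.1 FPKM across the controls, against 38.3 for knockout 0 and 43.3 for knockout 1. Both knockout libraries were below every control, knockout 0 by the wider margin, with a log2 fold change of -0.25 (SE 0.0802, 95% interval -0.45 to -0.05). Uck2, an isoenzyme with the same substrates, stood at 7.09, 5.74 and 7.24 FPKM across the controls, against 6.86 for knockout 0 and 9.07 for knockout 1. Knockout 0 was within the control range and knockout 1 above it, with a log2 fold change of 0.22 (SE 0.147, 95% interval -0.15 to 0.58). Uck2 made up 12.1% ± 1.20 (SD, n = 3) of the summed kinase FPKM across the controls, against 15.2% for knockout 0 and 17.3% for knockout 1.

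Cda, which deaminates cytidine and deoxycytidine, was the most abundant member in all 5 libraries. Its level was 261.0, 269.0 and 243.6 FPKM across the controls, against 217.9 for knockout 0 and 147.5 for knockout 1. Both knockout libraries were below every control, and knockout 1, at 57.2% of the control mean, was further from it than knockout 0, at 84.5%. The log2 fold change of Cda was -0.52 (SE 0.175, 95% interval -0.96 to -0.08).

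The 3 enzymes that take uracil to beta-alanine did not move together. Dpyd, dihydropyrimidine dehydrogenase, which sets the pace of uracil breakdown, stood at 23.1, 24.0 and 22.1 FPKM across the controls, against 21.8 for knockout 0 and 25.9 for knockout 1. The knockout libraries lay just outside the controls on opposite sides, and the log2 fold change of 0.04 (SE 0.0948) had a 95% interval of -0.20 to 0.28. Dpys, dihydropyrimidinase, stood at 11.9, 9.04 and 12.3 FPKM across the controls, against 4.05 for knockout 0 and 14.6 for knockout 1.

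Dpys was the member with the widest gap between the knockout libraries: knockout 0 was at 36.5% of the control mean and knockout 1 at 131.9%, a 3.61-fold difference. Its log2 fold change of -0.43 (SE 0.472, 95% interval -1.62 to 0.75) averaged these opposite values. With 1 library on each side, the difference between knockout 0 and 1 could not be tested. Upb1, beta-ureidopropionase (ENSMUSG00000033427.14, mm10 chromosome 10, 75401115 to 75441679, plus strand), stood at 56.9, 57.4 and 52.5 FPKM across the controls, against 33.4 for knockout 0 and 36.1 for knockout 1. Both knockout libraries were below every control by a similar amount, with a log2 fold change of -0.66 (SE 0.0789, 95% interval -0.86 to -0.46). As a ratio of FPKM, Upb1 to Dpyd was 2.41 ± 0.0460 (SD, n = 3) across the controls, against 1.53 for knockout 0 and 1.39 for knockout 1.

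**Figure D3:**
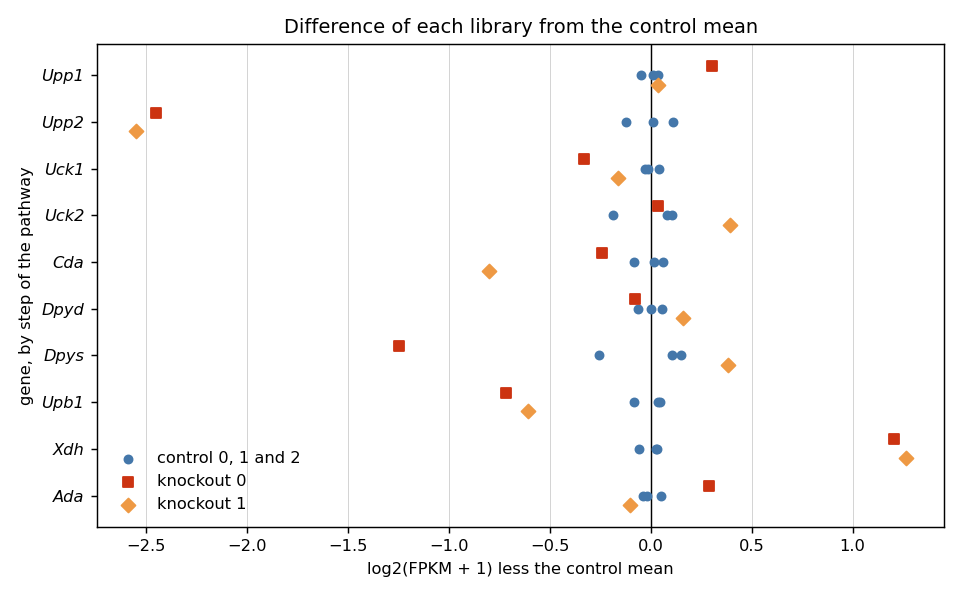
Difference of each library from the control mean, in log2(FPKM + 1), for the 10 genes in the order of the pathway. Circles are the 3 controls, squares knockout 0 and diamonds knockout 1. Both knockout libraries sit together for Upp2 (-2.45 and -2.55), Upb1 (-0.72 and -0.61) and Xdh (1.20 and 1.26), and on opposite sides of 0 for Dpys (-1.25 and 0.38).

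In the purine branch Xdh stood out and Ada did not. Xdh, which oxidises hypoxanthine and xanthine to urate (ENSMUSG00000024066.9, mm10 chromosome 17, 73883895 to 73950196, minus strand), stood at 2.80, 3.04 and 3.04 FPKM across the controls, against 8.12 for knockout 0 and 8.50 for knockout 1. Both knockout libraries were far above every control and close to each other, and their mean was 2.81 times that of the controls. The log2 fold change of Xdh was 1.23 (SE 0.0741, 95% interval 1.05 to 1.42), and of the tested rows without a listed 0, 117 had a higher one. Ada, adenosine deaminase, was low throughout, at 1.15, 1.05 and 1.02 FPKM across the controls, against 1.53 for knockout 0 and 0.932 for knockout 1. The knockout libraries lay on opposite sides of the controls, with a log2 fold change of 0.09 (SE 0.151, 95% interval -0.28 to 0.47).

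In the limma fit over all 12640 tested rows (Benjamini-Hochberg adjusted p under 0.05), 1 of the 10 members passed in the higher direction (Xdh), 2 in the lower (Upp2 and Upb1) and 7 did not pass. Over all tested rows 6.34% passed, 2.73% higher and 3.62% lower. With each library rescaled to TPM the 345 higher and 457 lower rows became 454 and 266. Since the set was assembled around a gene known to have fallen, nothing is read from the difference between these shares. The knockout libraries were both above every control in 1 member and both below in 4 (Upp2, Uck1, Cda and Upb1), against 21.9% and 26.3% of all tested rows, or 48.2% in either direction. They lay on opposite sides of the controls in 3 members (Dpyd, Dpys and Ada), against 14.3% of all tested rows. The median log2 fold change of the members was -0.10, beside -0.02 over all tested rows. Upp2 passed in all 15 alternative fits and Xdh in 13 of 15, failing without control 2 and with a replicate block. Upb1 passed in 10 of 15 and failed when any 1 control library was left out, when no filter on low values was used and with the block. Its log2 fold change in those fits lay between -0.70 and -0.64. All of these fits reuse the values on which the set was selected. They show how the calls depend on the processing and do not test a member.

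The libraries differed in more than the label, and these differences ran alongside the members' values. Pkd1 itself stood at 3.22, 3.51 and 3.49 FPKM across the controls, against 2.72 for the library labelled knockout 0 and 3.60 for that labelled knockout 1 (limma adjusted p = 0.646), so a value over the whole gene does not show the knockout. All directions are therefore those of libraries labelled as knockouts. Xist, the transcript of the silenced X chromosome, ranged from 0.0222 to 0.0275 across the controls, against 30.8 for knockout 0 and 80.3 for knockout 1. Ddx3y, which lies on the Y chromosome, gave 17.8 to 18.6, 7.30 and 0.00194 in the same order, so sex and genotype cannot be told apart here. Knockout 0 held both transcripts. Of the 9 tested androgen-dependent kidney genes, 1 passed higher (Cyp4b1, listed at 0 in the controls) and 1 lower (Cyp7b1). Their median log2 fold change of -2.97 was that of Slco1a1, which averaged unlike knockout libraries. It ranged from 14.2 to 104.1 across the controls, against 31.2 for knockout 0 and 0.0422 for knockout 1. Both knockout libraries were below every control in 3 of these 9 genes and above in 1. Of 7 genes taken as female-biased 4 passed higher and 0 lower, with 2 lower at an unadjusted p under 0.05 (median 1.38). The part of sex in the values of Upp2, Upb1 and Xdh was not tested.

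Markers of kidney cell types were set beside the members, as FPKM summed over each list. The 5 markers of the convoluted proximal tubule above 0 summed to 645.3 to 916.1 across the controls, against 735.0 for knockout 0 and 912.5 for knockout 1. The other 2 of that list, Slc34a1 and Lrp2, were listed at 0 in all 5 libraries, which cannot be read as absence in kidney. The 6 markers of the straight proximal tubule above 0 throughout summed to 753.6 to 1246 across the controls, against 554.1 for knockout 0 and 447.2 for knockout 1. The other marker of that list, Atp11a, was listed at 0 in every control, against 164.1 for knockout 0 and 64.7 for knockout 1. With it the sums were 718.2 for knockout 0 and 511.9 for knockout 1. Within that list Slc7a13 (305.9 to 630.8, 174.6 and 1.83), Cyp7b1 (20.7 to 115.3, 4.05 and 1.80) and Slc5a8 (70.4 to 116.4, 26.8 and 24.1) were below every control in both knockout libraries, as Upp2 was. Slc3a1 (188.4 to 255.0, 226.8 and 244.4) was within the control range in both, and Slc22a13 and Slc5a10 were not below it in both. Cyp7b1 is also among the androgen-dependent genes above, so this list is not separate from the difference in sex. The 8 macrophage markers summed to 91.1 to 101.4 across the controls, against 385.4 for knockout 0 and 134.6 for knockout 1, and the 8 lymphocyte markers to 4.11 to 4.80, 12.2 and 6.51. The 8 injured-tubule markers summed to 116.1 to 125.0, 476.4 and 119.9, with Krt8 the largest part in the controls (77.3 to 80.4, 103.8 and 70.5). Singly, 4 of these 8 were above every control in both knockout libraries (Vcam1, Sox9, Cdkn1a and Timp1) and 0 were below. Macrophage, lymphocyte and injured-tubule sums were thus highest in knockout 0, the library with the lowest Dpys. The 6 liver markers summed to 107.1 to 118.4 across the controls, against 72.8 for knockout 0 and 60.9 for knockout 1, with Cps1 near 0 (at most 0.00480) in each library. Of these 6 markers, 3 were below every control in both knockout libraries, including Serpina1a (47.7 to 65.7, 12.0 and 13.9), and 2 were above, Alb (2.89 to 4.42, 9.51 and 17.0) and Fgb (0.608 to 0.922, 12.6 and 3.24). What these cell types contributed to the members' values was not tested.

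Of the remaining marker lists, both knockout libraries were below every control in the summed FPKM of 5 distal convoluted tubule markers (515.1 to 529.9 across the controls, 274.1 for knockout 0 and 459.8 for knockout 1) and of 5 urothelial markers (15.6 to 23.2, 4.56 and 10.4). Taken singly, 2 of the 5 distal convoluted tubule markers and 4 of the 5 urothelial ones were below every control in both. Slc12a3, of the distal convoluted tubule list, was above every control in knockout 1 (148.9 to 173.1, 123.6 and 224.9). Both knockout libraries were above every control for the sum of the 6 fibroblast and pericyte markers (65.4 to 93.3, 171.5 and 97.1), but for only 2 of these genes singly. For podocyte markers the knockout libraries lay on opposite sides (100.7 to 129.5, 92.5 and 137.9). Of 8 collecting duct markers, 6 were below every control in both knockout libraries (the median difference from the control mean was -0.72 for knockout 0 and -0.28 for knockout 1 in log2(FPKM + 1)), while the sum (719.5 to 844.2, 598.8 and 770.9), of which Aqp2 and Hsd11b2 were the largest parts, was below the controls only for knockout 0. At least 1 knockout library was within the control range in the summed FPKM of endothelial, neutrophil and adrenal markers and for those of the thick ascending limb other than Umod. That gene was listed at 0 in every control, against 784.3 for knockout 0 and 1144 for knockout 1.

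Profiles nearest Upp2 over the 5 libraries were taken by the smallest mean absolute gap in log2(FPKM + 1) less the control mean. The search covered 11802 tested genes above 0 in every library, with predicted or clone-named genes and repeated symbols left out. The nearest were Inmt (gap 0.161), Apoa4 (0.175), Bcat1 (0.209), Cyp2d9 (0.230) and Cyp2d12 (0.243). Inmt, an indolethylamine methyltransferase, averaged 897.2 ± 74.2 FPKM (SD, n = 3) across the controls, against 260.1 and 139.9 for the knockout libraries, and Apoa4, an apolipoprotein gene, was at 15.2 ± 1.47, 2.06 and 3.51. Bcat1, a branched-chain aminotransferase, was at 11.7 ± 3.89, 1.101 and 0.793. Cyp2d9 and Cyp2d12 have near-identical relatives, so their values are uncertain. With 5 libraries, likeness of profile is a description only.

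The other enzymes and transporters of nucleotide metabolism were described through 9 lists, of which 75 of 86 genes were tested. Of these 75 genes, 4 rose, 6 fell and 65 did not pass by limma over all genes, or 13.3% called, beside 6.34% of all tested rows. The median log2 fold change was -0.13, and 28 were positive and 47 negative. Each of the 10 called genes kept its direction in all 15 alternative fits. Of the 10, however, 0 passed when any 1 control was left out and 0 with the replicate block. An unadjusted limma p under 0.05 was then found for 20 to 25 of the 75, and for 21 with the block. Over all 12640 tested rows it was found for 2140 to 2901 with 1 control left out, and for 1862 with the block. In the main fit it was found for 34 of the 75 and for 3680 of all tested rows. Unadjusted counts of single lists below are to be read beside these.

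The enzymes after Upb1, which degrade beta-alanine and related acids, had the largest share of falls among the 9 lists. Of 5 tested genes 2 fell and 0 rose, with 4 lower and 0 higher at an unadjusted limma p under 0.05. The median log2 fold change was -0.38. Agxt2, a mitochondrial aminotransferase that uses beta-aminoisobutyrate, fell from 71.4 ± 7.04 FPKM (SD, n = 3) to 35.6 in knockout 0 and 44.1 in knockout 1 (a log2 fold change of -0.83 with SE 0.129, limma adjusted p = 0.0323). Hibadh, a dehydrogenase of valine breakdown, fell from 453.9 ± 14.9 to 262.5 and 326.4 (adjusted p = 0.0443 by limma). Hibch was at 42.9 ± 3.49, 32.4 and 36.4 and did not pass (limma adjusted p = 0.115). Abat, also of this list, did not fall, at 98.9 ± 4.66, 97.5 and 135.5 (limma adjusted p = 0.391). Its log2 fold change of 0.22 was the 1 positive value of the list, beside 4 negative ones. Agxt2 and Hibadh were, like Upb1, below every control in both knockout libraries. Their calls were both lost also after quantile normalization, and that of Hibadh with values rescaled to TPM.

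Among the urate transporters, the step after Xdh, 1 of 8 rose, 1 fell and 6 did not pass, with a median of -0.49. At an unadjusted limma p under 0.05, 2 were higher and 5 lower. Abcc4, an exporter of urate and nucleotides, rose from 7.64 ± 0.336 FPKM (SD, n = 3) to 13.4 and 15.7, a log2 fold change of 0.84 (SE 0.0897, adjusted p = 0.0176 by limma). Slc22a12, the urate reabsorption transporter URAT1, fell from 877.8 ± 194.1 to 406.2 and 249.6, a log2 fold change of -1.43 (SE 0.278, adjusted p = 0.0471 by limma). The call of Slc22a12 was lost in 9 of 15 alternative fits. Slc17a1, a phosphate and urate carrier, was at 394.7 ± 43.9, 274.2 and 255.7 and did not pass (limma adjusted p = 0.0549).

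The enzymes of purine breakdown other than Xdh and Ada gave 1 fall among 8 tested genes and 0 rises, with 1 higher at an unadjusted p under 0.05 (median -0.08). Adal, an adenosine deaminase-like enzyme, fell from 11.7 ± 0.283 FPKM (SD, n = 3) to 8.86 and 8.02 (limma adjusted p = 0.0371), Gda, guanine deaminase, was at 2.09 ± 0.480, 3.55 and 2.78, and Urah at 1.93 ± 0.297, 4.49 and 2.20. Uox, urate oxidase, was near or at 0 in every library (at most 0.0909), and Urad and Allc were listed at 0 in all 5. Of 10 purine salvage genes 0 passed by limma, with 4 lower and 0 higher at an unadjusted p under 0.05 (median -0.23, 9 of 10 negative). Ak3, Adk (adenosine kinase) and Guk1 were at 165.5 ± 5.96, 142.6 ± 4.29 and 63.8 ± 5.30 across the controls, against 123.4, 106.0 and 54.5 for knockout 0 and 141.1, 125.9 and 45.3 for knockout 1.

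Among 8 tested pyrimidine salvage genes, 2 were higher and 3 lower at an unadjusted p under 0.05 by limma (median -0.04). By adjusted p 0 rose and 1 fell. It was Nme2, a nucleoside diphosphate kinase, which fell from 661.3 ± 33.7 FPKM (SD, n = 3) to 441.2 and 334.8 (limma adjusted p = 0.0412). Its neighbour Nme1 was at 131.8 ± 5.91, 100.9 and 78.0, and the close likeness of the pair makes both values uncertain. Cmpk1, which phosphorylates UMP and CMP, was at 117.4 ± 3.57, 97.2 and 92.4. Of 9 tested nucleotidases and related enzymes 2 rose and 0 fell, with 1 lower at an unadjusted p under 0.05 (median -0.11). Nt5c3b, a cytosolic nucleotidase, rose from 7.11 ± 0.398 to 11.9 and 12.0, and Samhd1, which degrades deoxynucleotides, from 7.83 ± 0.132 to 12.6 and 10.7 (limma adjusted p = 0.0176 and 0.0362). Nt5c2 was at 18.6 ± 1.10, 16.5 and 14.9.

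Of 4 tested nucleoside transporters 0 passed by limma, with 1 lower at an unadjusted p under 0.05 and a median of -0.03. Slc29a1, the equilibrative transporter ENT1, was at 17.4 ± 1.29 FPKM (SD, n = 3), 14.6 and 13.7, Slc28a1, a concentrative pyrimidine transporter, at 8.94 ± 0.624, 7.91 and 8.23, and Slc29a2 at 2.29 ± 0.0703, 2.05 and 3.11. Of 10 genes of pyrimidine and deoxynucleotide synthesis 1 rose and 1 fell, with 3 higher and 3 lower at an unadjusted limma p under 0.05 (median 0.02). Rrm1, the large subunit of ribonucleotide reductase, rose from 5.38 ± 0.767 to 11.3 and 9.64 (limma adjusted p = 0.0306). Rrm2b was at 10.6 ± 1.19, 7.33 and 8.49. Of 13 genes of purine synthesis 0 passed by limma, with 2 lower at an unadjusted p under 0.05 (median -0.0023). The lowest adjusted p there was that of Paics, at 132.0 ± 6.70, 108.9 and 106.5 (0.0871 by limma), followed by Adsl, at 13.5 ± 0.647, 11.5 and 11.9, and Impdh1, at 3.17 ± 0.178, 4.93 and 3.52.

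**Figure D4:**
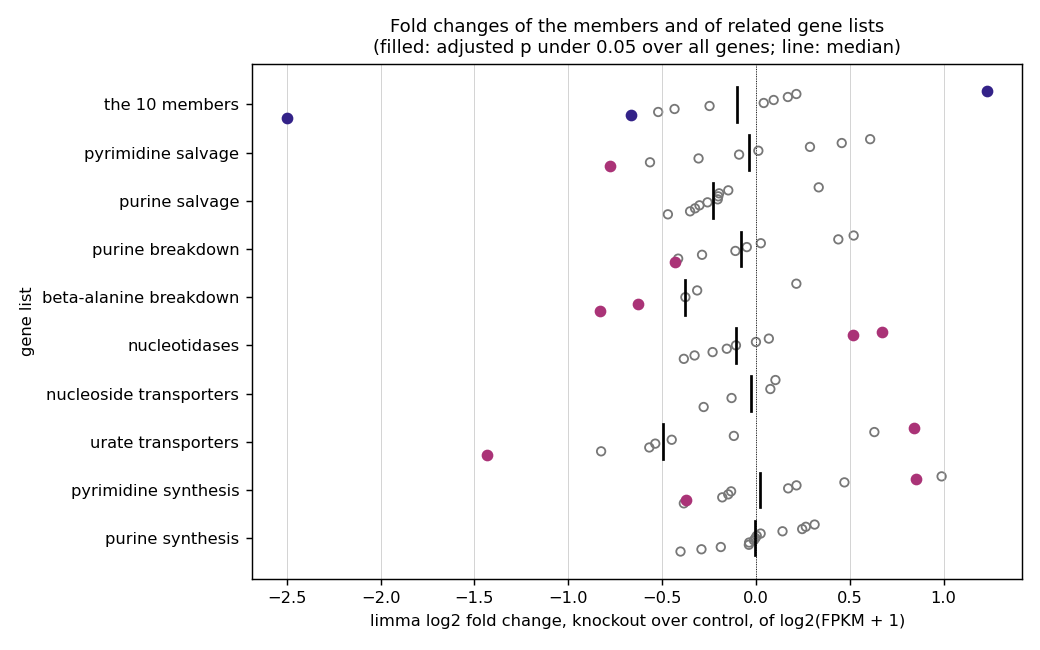
The limma log2 fold change (x axis, knockout over control, of log2(FPKM + 1)) of each tested gene, by list (y axis), with the 10 members on top. Filled points have an adjusted p under 0.05 over all genes, and a vertical line marks each list's median. Upp2 (-2.50) and Xdh (1.23) lie outside the range of the 75 related genes, whose list medians run from -0.49 to 0.02.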

How the data were processed

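RNA had been extracted from whole kidneys with TRIzol and made into Illumina mRNA-seq libraries, per the labels' protocols. The deposited values are FPKM computed by the authors, 1 column per library, with 0 value columns left unmapped. The submitters' processing notes name bcl2fastq and mm10, whereas aligner, FPKM program, annotation and strandedness were not given in the sources used here. Read depth is unknown, so no counting interval was computed. FPKM summed to between 462814 and 507053 per library.

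Differences were fitted on log2(FPKM + 1) for 12640 rows whose mean reached 1 FPKM, with limma 3.58.1 in R 4.3.3 (variance trend, two-sided, Benjamini-Hochberg over all rows, threshold 0.05), tested on simulated data first. An exact permutation test of 3 against 2 libraries cannot go below 0.1. A listed 0 may be a failed estimate, and no member had one. The members, the lists and the rule for named genes (all members, called genes of each list or up to 3 by adjusted p, and 5 profiles nearest Upp2) were chosen with earlier results of these data known. Genes named from the marker lists, and Uox, Urad, Allc, Cyp4b1, Cyp7b1 and Slco1a1, were named after their values were seen. Uck1 and Uck2 share 4 and 150 exonic bases with an opposite-strand gene, and the other members share 0. The values of 1 called gene of these lists are not reported here. Tables were handled with Python 3.11.15 and pandas 2.3.3.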

Additional observations from a re-analysis of the deposited data

How the results depend on the processing

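In 15 alternative fits (pseudocount of 0.1, no filter or a mean of at least 5 FPKM, TPM, median-of-ratios, quantile normalization, no variance trend, robust variances, rows listed at 0 left out, a replicate block, each library left out), the count of 802 called genes was 247 with no filter and 28 with the replicate block. It ran from 36 to 2599 with 1 library left out, at 37, 155 and 36 without control 0, 1 and 2, and 1054 and 2599 without knockout 0 and 1. The split was 345 higher and 457 lower, and 454 and 266 as TPM. The median log2 fold change of all genes moved by less than 0.1 under each scaling. Of the members, 1 was called higher, 0 with the replicate block, and 0 to 1 with 1 library left out. The 2 called lower were 1 with no filter, 1 with the block, and 1 to 4 with 1 library left out, where Uck1 and Dpys joined without knockout 1 and Cda without knockout 0. The 10 called genes of the related lists were 2 with no filter, 0 with the block, and 0 to 22 with 1 library left out. The log2 fold change ran from -3.27 to -2.44 for Upp2, 1.16 to 1.46 for Xdh and -0.72 to -0.59 for Upb1. With 1 library left out it ran from -1.25 to 0.38 for Dpys, -0.24 to 0.063 for Pkd1 and -0.10 to 0.29 for Ada, positive without knockout 0 for the first pair and negative without it for Ada, and from -0.077 (without knockout 1) to 0.16 for Dpyd. Ada also turned negative after quantile normalization (-0.020). Ada was not tested at a mean of at least 5. The cause of these changes was not tested. Same-numbered libraries were tied by no label other than the number. Their deviations from group means correlated at 0.0863 for number 0 and 0.00236 for number 1. With 2 knockout libraries these deviations mirror each other (control 0 gave -0.0863 with knockout 1). The correlation therefore cannot decide whether the block stands for a pairing. Fits with a single knockout library take its variation from the controls.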
